A study of Mus musculus with 6 samples.

Results

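Zfp genes encode mouse proteins with zinc fingers, and 220 of the 328 genes on the array whose symbol is Zfp, a number and at most 1 letter were detected in retinal RNA. A gene counted as detected when at least 1 of its probes had a detection p-value under 0.05 on at least 3 of the 6 arrays, so measured values chose the genes. Each gene is represented by its brightest tested probe. Of the 13989 features tested, which are genes or probes with no single gene symbol, 11089 were named genes. The arrays held total RNA from isolated retinas of 3 Vldlr knockout samples and 3 wild-type samples, the wild-type source being named Jax WT. The labels give JAX as the background strain of both groups, which names no strain, and give no age, sex, allele or treatment. Nothing in them says that the samples came from separate mice, so each p-value covers the variation among these 6 arrays alone and may be technical in part.

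Most zinc finger proteins of this kind carry a row of C2H2 fingers, in which cysteines and histidines hold a zinc ion and the finger reads DNA bases. Many mouse Zfp proteins also carry a KRAB domain, which recruits the co-repressor TRIM28 and, through it, enzymes that silence chromatin, with retrotransposons as the best known targets. KRAB zinc finger genes arose by repeated local duplication and lie in clusters of related copies. Other Zfp proteins are activators, developmental regulators or binders of RNA, so the symbol groups genes by protein fold rather than by role. The knocked-out gene, Vldlr, codes for a lipoprotein and reelin receptor whose loss in mice is known for abnormal vessel growth in the outer retina.

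Vldlr itself, the targeted gene, was 10.16, 10.22 and 10.41 in the knockout arrays, against 11.31, 11.33 and 11.68 in the wild-type arrays, on the log2 scale of normalized signal used throughout. Its change, knockout minus wild-type, was -1.17 (SE 0.176, limma adjusted p = 0.0075), and the probe was detected on all 6 arrays. The call was lost without knockout replicate 1 and without knockout replicate 2, with the authors' deposited background-subtracted values, with the mean of its probes and with the Xist term described next, at adjusted p of 0.0528 to 0.226 and changes of -1.15 to -0.68. Of its 4 other tested probes, those detected on all 6 arrays changed by -1.22 and -1.26, and the dimmer ones, with overlapping groups, by 0.23 and 0.02. Where its probes lie relative to the knocked-out part was not analysed here. The labels do not state sex, but Xist, the RNA that coats the inactive X chromosome of females, was 8.84 and 9.89 in knockout replicates 1 and 2 and 4.49 in replicate 3, against 4.41, 4.97 and 4.50 in the wild-type arrays. The Y-linked gene Eif2s3y was 4.58, 4.53 and 7.20 in the knockout arrays, against 7.52, 7.48 and 7.56 in the wild-type arrays. Both genes set knockout replicates 1 and 2 apart from the other 4 arrays, so sex and genotype cannot be fully told apart. Some of the results below are also given with a term for high Xist, chosen after these levels were seen. Rod photoreceptor markers, of which 8 of 10 were tested, had medians of 12.70 to 13.37 in the knockout arrays and 12.48 to 12.73 in the wild-type arrays, as the retinal label calls for. The summed level of 10 microglia markers, all tested, was 9.14 to 9.20 in the knockout arrays and 9.59 to 10.02 in the wild-type arrays, and 2 of them passed the threshold as lower. Lens markers, of which 13 of 15 were tested, had their highest median in knockout replicate 1, at 11.73, against 5.22 to 9.09 in the other 5 arrays. Of 9 cone markers, all tested, 2 passed as higher and 1 as lower. Their medians were 9.77 to 10.29 in the knockout arrays and 9.46 to 9.55 in the wild-type arrays, while their summed levels overlapped. Müller glia markers, of which 7 of 9 were tested and 0 passed, had medians of 9.57 to 10.22 in the knockout arrays. Their medians were 10.33 to 10.38 in the wild-type arrays, and their summed levels overlapped too. Erythrocyte markers, of which 4 of 7 were tested, had summed levels of 12.58 to 13.70 in the knockout arrays and 11.78 to 13.25 in the wild-type arrays. In bulk tissue, fewer cells of a type and less RNA per cell cannot be told apart. Beyond the Xist term, the part of sex or of microglia, cone, Müller glia, lens or erythrocyte RNA in the Zfp results was not tested.

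Among the 220 detected Zfp genes, 8 were lower in the knockout retinas past an adjusted p of 0.05 and 0 were higher. The 8 were Zfp160, Zfp933, Zfp874b, Zfp706, Zfp87, Zfp39, Zfp429 and Zfp367, or 3.64% of the Zfp genes, against 2.5% of all features called in either direction, 1.74% lower and 0.758% higher. Of the 8, Zfp933, Zfp706, Zfp429 and Zfp367 were detected in the wild-type arrays alone by the probe that represents them. Such a probe could only be tested if it differed, so those 4 calls add nothing to the count. Zfp933 has another probe, detected on 4 arrays, so that gene would have entered without its wild-type-only probe. Zfp874b, Zfp429 and Zfp367 were in addition named in the selection with earlier results known. Over the 185 Zfp genes detected on all 6 arrays, 4 were called lower and 0 higher, which is 2.16%, against 1.29% called lower and 1.97% called in either direction over all features detected on 6 arrays. At an unadjusted p under 0.05, 10 of the 220 genes were higher and 21 lower, or 14.1%, close to the 12.4% over all features (5.65% higher and 6.74% lower).

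Across the whole set the changes were small. The median change was -0.04, with quartiles of -0.24 and 0.14 and a range of -2.61 to 0.87, beside a median of 0.02 over all features tested. Values of the 2 groups did not overlap for 48 of the 220 genes, or 21.8%, of which 35 were lower and 13 higher, against 18.6% of all features, 9.63% lower and 8.98% higher. Of the 35, 5 are represented by probes detected in wild-type arrays alone, and of the 13, Zfp985 by a probe detected in knockout arrays alone. Their direction was fixed by the selection. Over the 185 Zfp genes detected on all 6 arrays, 28 were lower without overlap (15.1%) and 7 higher, together 18.9%. Of all features detected on 6 arrays, 18.7% did not overlap, 9.72% as lower. The Zfp genes thus had about the share of separated genes that all features had, with more of them on the lower side.

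**Figure D1:**
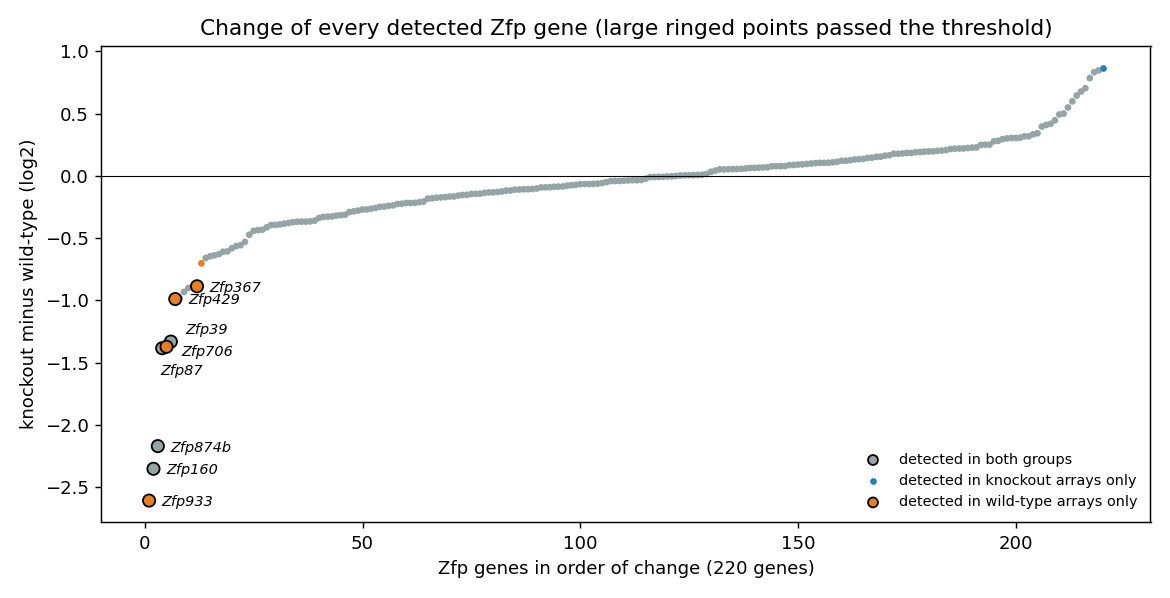
Change of each of the 220 detected Zfp genes (knockout minus wild-type, log2) in order of size, coloured by the arrays in which the gene's probe was detected, with the 8 genes past the threshold ringed and named. The ringed genes lie between -2.61 and -0.89, and for 4 of them the probe shown was detected in wild-type arrays only.

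Zfp160 showed a clear separation, with 5.52, 5.86 and 5.39 in the knockout retinas against 7.96, 7.83 and 8.04 in the wild-type retinas. Its probe was detected on all 6 arrays, and no knockout value came near a wild-type value. The mean was 5.59 ± 0.245 in knockout and 7.94 ± 0.106 in wild-type retinas (SD, n = 3 each), a change of -2.35 (SE 0.181) or 5.1-fold lower, with a limma adjusted p of 0.000171. With the Xist term the change was -2.55 and the adjusted p 0.0069. Its nearest tested neighbours on chromosome 17, by the reference annotation, were Ppp2r1a, at -0.27, and Zfp54, at -0.16, and neither passed the threshold. The promoter of Zfp160 is shown because the gene combined detection on every array with the lowest adjusted p of the 220, and it runs from 250 bases before to 50 after the start in RefSeq (chr17:21008691-21008990, GRCm38.p6, plus strand).
Zfp160: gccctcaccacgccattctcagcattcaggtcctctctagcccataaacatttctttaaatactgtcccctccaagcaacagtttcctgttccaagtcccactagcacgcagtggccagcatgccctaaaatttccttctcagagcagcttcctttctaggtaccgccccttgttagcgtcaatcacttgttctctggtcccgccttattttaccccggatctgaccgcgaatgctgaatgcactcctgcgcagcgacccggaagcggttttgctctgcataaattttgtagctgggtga
It holds 12 CG pairs at a GC content of 51.3% and 0 matches to the 12-letter motif described below.

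Zfp933 was 4.24, 4.38 and 4.27 in the knockout arrays, where it was not well above background, and 6.59, 6.78 and 7.34 in the wild-type arrays. It was at least 4.36-fold lower in knockout, with the higher of the probe's signal and the array's lowest detected signal taken for each knockout array. The fitted change was -2.61 (SE 0.214, limma adjusted p = 0.000237), and -2.64 with the Xist term (adjusted p = 0.0186). A further probe annotated to the gene changed by -1.26 with 0 knockout and 3 wild-type arrays detected, but another, detected on 3 knockout arrays and 1 wild-type array, changed by 0.22. The probes therefore disagree about Zfp933, and which transcripts each reads was not analysed here. Zfp979, the nearest tested gene before it on chromosome 4, was 4.89, 5.20 and 5.02 in knockout and 5.89, 5.75 and 5.15 in wild-type retinas. Its groups overlapped, at a change of -0.56 (limma adjusted p = 0.342). The promoter of Zfp933 (chr4:147848369-147848668, GRCm38.p6, minus strand) is shown because it holds the motif, in capitals, 32 bases before the start.
Zfp933: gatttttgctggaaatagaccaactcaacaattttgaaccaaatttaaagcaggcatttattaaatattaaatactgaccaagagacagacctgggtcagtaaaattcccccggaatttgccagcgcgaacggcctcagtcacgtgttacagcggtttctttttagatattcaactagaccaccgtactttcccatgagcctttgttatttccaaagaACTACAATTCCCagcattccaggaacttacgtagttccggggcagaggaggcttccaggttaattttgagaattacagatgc

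Zfp874b was 6.43, 6.26 and 6.25 in the knockout retinas, against 8.68, 8.66 and 8.12 in the wild-type retinas. All 6 arrays detected the probe, and the groups lay well apart, with means of 6.31 ± 0.0973 and 8.48 ± 0.317 (SD, n = 3 each) for knockout and wild-type. That is a change of -2.17, or 4.5-fold lower in knockout, and -2.23 with the Xist term. Another probe annotated to the same transcript was detected on 0 arrays and so not tested. It was 4.39, 4.27 and 4.31 in knockout against 4.70, 4.44 and 4.29 in wild-type arrays. A near copy, Zfp874a, lies beside Zfp874b on chromosome 13, and since probe sequences were not used here, signal from the copies cannot be assigned to 1 gene with certainty. RefSeq lists Rslcan16 as a synonym of Zfp874b, after the regulator of sex-limitation candidates, a group of KRAB zinc finger genes of which some repress genes with sex-biased expression in mouse liver.

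Zfp87, for which RefSeq lists the synonym KRAB4, was 7.61, 7.43 and 7.65 in knockout and 8.87, 9.21 and 8.76 in wild-type retinas. The groups did not overlap, and the change was -1.38 (SE 0.179, limma adjusted p = 0.00308). Its other probe, also detected on all 6 arrays, was 6.59, 6.93 and 6.48 in knockout against 6.82, 7.14 and 6.59 in wild-type retinas, a change of -0.18 whose groups overlapped. With the mean of both probes the call was lost (-0.78), and with the Xist term the adjusted p was 0.103 at a change of -1.30.

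Zfp39 was 7.38, 7.08 and 6.92 in the knockout arrays, against 8.65, 8.63 and 8.09 in the wild-type arrays. Every knockout value lay below every wild-type value, with a change of -1.33 (SE 0.214, limma adjusted p = 0.0109). The call was lost without knockout replicate 2, without knockout replicate 3 and without wild-type replicate 2, at adjusted p of up to 0.0633, and with the Xist term, at -1.54 and an adjusted p of 0.0988. Its promoter (chr11:58904176-58904475, GRCm38.p6, minus strand) is GC-rich, with 18 CG pairs, and is shown as a called gene without the motif.
Zfp39: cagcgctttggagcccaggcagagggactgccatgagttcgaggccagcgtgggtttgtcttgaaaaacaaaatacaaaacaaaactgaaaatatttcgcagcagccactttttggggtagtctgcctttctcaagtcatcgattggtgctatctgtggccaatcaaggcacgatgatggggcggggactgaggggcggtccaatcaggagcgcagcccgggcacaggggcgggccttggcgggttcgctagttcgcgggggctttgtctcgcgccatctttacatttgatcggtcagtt

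Zfp706, on chromosome 15, was 4.49, 4.77 and 4.66 in the knockout arrays, not well above background, against 5.93, 5.99 and 6.11 in the wild-type arrays. The values within each group were close together, and the bound was at least 2.35-fold lower in knockout (fitted change -1.37, SE 0.163, limma adjusted p = 0.0018). With the Xist term the change was -1.35 and the adjusted p 0.063, so that call was lost.

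Zfp429 was 4.44, 4.50 and 4.42 in the knockout arrays and 5.78, 5.03 and 5.51 in the wild-type arrays. No knockout array detected it, and the bound was at least 1.58-fold lower in knockout. Its other probes, annotated to the same transcript, were detected on 0 arrays, wild-type included, at 4.24 to 4.49. The bound therefore rests on the tested probe alone. RefSeq gives Rsl2, regulator of sex-limitation 2, as the synonym of Zfp429, a KRAB repressor known in mice for repressing sex-limited genes of the liver. The fitted change of Zfp429 was -0.99, beside -1.02 with the term for high Xist and -0.89 with a term for detection of Xist, and its call was lost under both Xist terms.

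Zfp367, described as an activator in erythroid cells, was 4.36, 4.31 and 4.68 in the knockout arrays, against 5.50, 5.43 and 5.07 in the wild-type arrays. The knockout values were again below detection, and the bound was at least 1.47-fold lower in knockout. The fitted change was -0.89, and -0.66 with the Xist term. Another probe of the same transcript accession, detected on only 2 arrays and so not tested, was 4.54, 5.04 and 4.75 in knockout against 4.49, 4.56 and 4.65 in wild-type arrays and did not show the lower knockout level. The calls of Zfp429 and Zfp367 were each lost in more than 10 of the alternative settings, the removal of 5 of the 6 single arrays included, so both lay at the edge of the test. The first of 2 RefSeq promoters of Zfp367 (chr13:64153150-64153449, GRCm38.p6, minus strand), with 36 CG pairs, has the most of those printed.
Zfp367: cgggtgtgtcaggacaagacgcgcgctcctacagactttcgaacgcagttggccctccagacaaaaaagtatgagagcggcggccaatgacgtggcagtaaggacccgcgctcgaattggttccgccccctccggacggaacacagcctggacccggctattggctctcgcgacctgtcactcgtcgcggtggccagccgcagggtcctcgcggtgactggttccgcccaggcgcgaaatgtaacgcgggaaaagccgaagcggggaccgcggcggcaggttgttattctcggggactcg

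**Figure D2:**
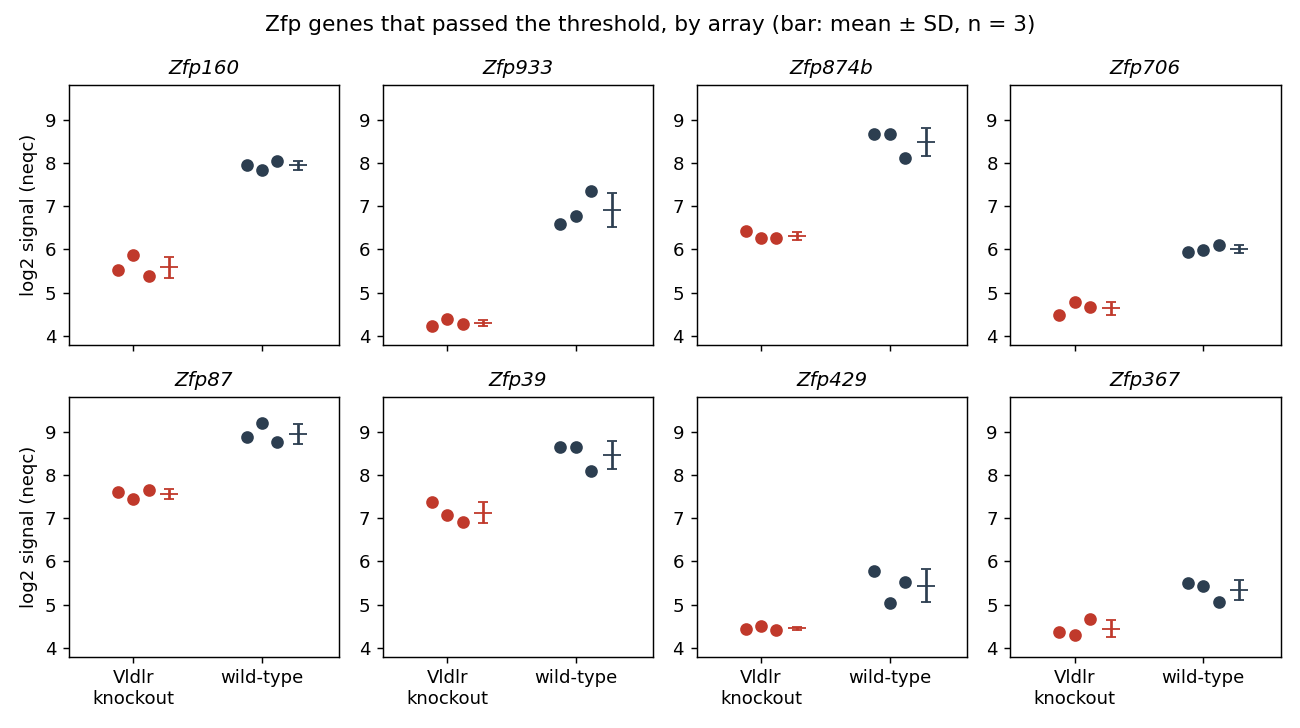
Normalized signal (log2) of the 8 Zfp genes past the threshold, with each point 1 array and the bar beside it the group mean and SD (n = 3), Vldlr knockout in red and wild-type in dark blue. In every panel all knockout points lie below all wild-type points, and the knockout points of Zfp933, Zfp706, Zfp429 and Zfp367 lie below 4.8, near the array background.

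With the Xist term, 3 of the 220 Zfp genes were called lower and 0 higher, or 1.36%, against 0.822% of all features called in either direction. Those called were Zfp160, Zfp933 and Zfp874b, whose changes of -2.55, -2.64 and -2.23 were close to those without the term. Zfp933 is represented by a probe detected in wild-type arrays alone, and Zfp874b was named in the selection with earlier results known. In the same fit Zfp457 had the largest positive change, 1.33 (adjusted p = 0.0922). The fit with the high-Xist term rests for its knockout group on replicate 3 as the only knockout array without high Xist, and its errors were larger. A term set instead by detection of Xist, which adds wild-type replicate 2 at a level of 4.97, left 6 Zfp genes lower, or 2.73%, beside 2.31% of all features called.

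The largest changes that did not pass included both directions. Zfp157 was 7.81, 7.55 and 7.33 in knockout against 8.30, 8.23 and 9.11 in wild-type retinas (-0.98, adjusted p = 0.115). Zfp185, on the X chromosome, changed by -0.93 (adjusted p = 0.0622), and Zfp748 by -0.90 (adjusted p = 0.0926), both without overlap between groups. Zfp865, at -0.89, was 6.48, 6.69 and 6.47 in knockout and 6.38, 7.89 and 8.04 in wild-type retinas, so the groups overlapped through wild-type replicate 1. On the other side Zfp985 was 5.42, 5.55 and 4.78 in knockout and 4.36, 4.40 and 4.38 in wild-type retinas, where it was not well above background, a fitted change of 0.87 (adjusted p = 0.0948) and a bound of at least 1.36-fold higher in knockout. It was the only gene of the 220 detected through the knockout arrays alone. Zfp78, at 0.85, and Zfp994, at 0.78, separated the groups as well, whereas Zfp386, at 0.83, did not. The other tested probe of Zfp386, detected on all 6 arrays, changed by 0.02.

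Chromosome 13 held 15 of the 220 genes and 4 of the 8 that passed, namely Zfp874b, Zfp87, Zfp429 and Zfp367. That is 26.7% of the Zfp genes there, beside 2.95% of the 373 features of the chromosome (2.14% called lower) and 1.96% of its 358 features that are not Zfp genes of the set. On other chromosomes 4 of 205 Zfp genes passed, or 1.95%, beside 1.73% of all features there called lower, and chromosome 7, with 60 detected Zfp genes, had 0. Of the 4, Zfp429 and Zfp367 entered through detection in wild-type arrays alone, which leaves Zfp874b and Zfp87 as called genes detected on all 6 arrays. Since 3 of the 4 were named in the selection and the chromosome was singled out after the values were seen, these counts are a description. The median change of the 15 genes was -0.33, and 12 of them had a negative change.

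The genes Zfp457 to Zfp738 form an uninterrupted run of 14 protein-coding Zfp genes in the reference annotation, 12 of them on the array and 8 detected. In the order of the chromosome the 8 changed by 0.70 (Zfp457), 0.01 (Zfp595), -0.99 (Zfp429), -2.17 (Zfp874b), -0.07 (Zfp58), -1.38 (Zfp87), -0.90 (Zfp748) and -0.70 (Zfp738). Thus 5 of the 8 were lower without overlap and 3 of those passed, beside 9.63% of all features lower without overlap and 1.74% called lower. Of the 5, Zfp429 and Zfp738 entered through detection in wild-type arrays alone, so their direction was fixed by the selection. Zfp58, lying between 2 called genes, was 8.29, 8.27 and 7.93 in knockout against 8.16, 8.47 and 8.09 in wild-type retinas, with overlapping groups. Its other tested probe, detected on all 6 arrays, was 6.22, 6.22 and 6.42 in knockout against 5.95, 5.69 and 5.81 in wild-type retinas. That change of 0.47, without overlap, did not pass. Zfp457, listed by RefSeq as Rslcan-6, had a positive change, with 5.13, 4.82 and 5.92 in knockout and 4.48, 4.47 and 4.81 in wild-type retinas (adjusted p = 0.335). Zfp748, with the RefSeq synonym KRAB-O, was 6.30, 6.49 and 6.25 in knockout against 7.54, 7.43 and 6.77 in wild-type retinas. Zfp738 was 4.41, 4.32 and 4.36 in the knockout arrays, with none detected, against 5.44, 4.83 and 4.93 in the wild-type arrays. Neighbours in this run were thus not lowered together as 1 block. Genes of such a run are related copies, and binding of 1 probe to several copies was not analysed here.

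**Figure D3:**
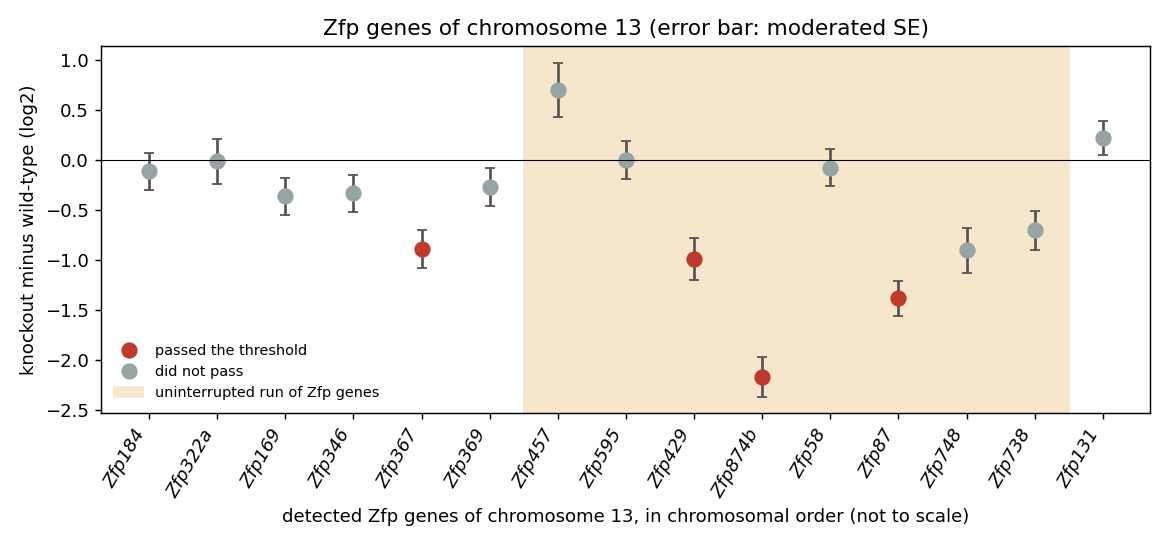
Change of the 15 detected Zfp genes of chromosome 13 (knockout minus wild-type, log2, error bar the moderated SE) in chromosomal order, with the run from Zfp457 to Zfp738 shaded and genes past the threshold in red. Within the shading the changes go from 0.70 to -2.17, and Zfp58 at -0.07 lies between Zfp874b and Zfp87.

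The promoters of this run shared a stretch of sequence. Of its 14 genes 12 have a RefSeq promoter entry. Among 12-letter patterns with 2 adjacent free letters, read on either strand, 3 overlapping ones were held by 11 of the 12, the exception being Zfp459, and the first in letter order, ACTACANNTCCC, is the motif used here. The 60-base windows around the match are shown on the gene's strand, with the match in capitals, where it reads as the reverse complement of the motif. The matches begin 26 to 79 bases before the start (GRCm38.p6, minus strand), and the windows lie at chr13:67484253-67484312 for Zfp874b and chr13:67399803-67399862 for Zfp429.
Zfp457: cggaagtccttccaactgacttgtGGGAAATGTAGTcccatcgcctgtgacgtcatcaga
Zfp595: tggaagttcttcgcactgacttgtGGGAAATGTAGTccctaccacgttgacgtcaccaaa
Zfp953: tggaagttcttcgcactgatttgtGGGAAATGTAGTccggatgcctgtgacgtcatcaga
Zfp456: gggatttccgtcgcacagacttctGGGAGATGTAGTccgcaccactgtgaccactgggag
Zfp429: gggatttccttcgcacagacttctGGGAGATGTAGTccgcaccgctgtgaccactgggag
Zfp874a: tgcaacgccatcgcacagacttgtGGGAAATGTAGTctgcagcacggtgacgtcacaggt
Zfp874b: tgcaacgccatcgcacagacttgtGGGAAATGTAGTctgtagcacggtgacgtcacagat
Zfp58: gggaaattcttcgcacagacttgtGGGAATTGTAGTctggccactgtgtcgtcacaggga
Zfp748: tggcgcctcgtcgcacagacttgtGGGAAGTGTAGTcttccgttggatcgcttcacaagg
Zfp729a: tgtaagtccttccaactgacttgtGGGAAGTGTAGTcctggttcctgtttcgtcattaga
Zfp738: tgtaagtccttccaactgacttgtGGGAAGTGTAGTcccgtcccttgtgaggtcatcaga
The 2 free letters of the motif vary among the genes, and genes whose changes differ share the match: Zfp595, at 0.01, and Zfp874b, at -2.17, both read GGGAAATGTAGT. The motif stands in the promoters of 28 of the 182 detected Zfp genes with an entry, or 15.4%, of 20.1% of the other Zfp genes and of 2.08% of all genes. Of those 28 genes 12 lie on chromosome 7 and 7 on chromosome 13. Among the 28, 3 passed the threshold, or 10.7%, and among the 154 without it, 3 passed, or 1.95%, beside 2.5% of all features. The 3 with the motif were Zfp933, Zfp874b and Zfp429, of which Zfp933 and Zfp429 are represented by probes detected in wild-type arrays alone. Zfp874b and Zfp429 belong to the run from which the motif was read, so nothing is read from these shares. The median change was -0.04 in both sets. Of 8 motifs searched on both strands, ACTACAATT overlaps this motif and stood in 3.85% of the detected Zfp genes and 0.448% of all genes. The TATAAA box stood in 8.79% against 15.7%, the GGGCGG box in 57.7% against 38.2% and the CCAAT box in 47.3% against 41.1% of all genes. The letters TAATCC stood in 8.24% against 8.14%, the E-box CACGTG in 8.24% against 8.09%, and GCGCATGC in 7.69% against 3.05%. The run and the motif were picked out after values and sequences were seen, and a match of letters is a description of the promoter only.

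Of the 15 distinct tested neighbours of the 8 called genes, 7 were Zfp genes of the set and 8 were not. Only 1 of those 8 passed the threshold. It was Habp4, which encodes a hyaluronan and RNA binding protein and is the nearest tested gene after Zfp367 in chromosomal order. Habp4 was 6.84, 7.0 and 6.83 in knockout against 4.67, 6.05 and 5.14 in wild-type retinas, a change of 1.6 (SE 0.311, limma adjusted p = 0.0306), opposite to Zfp367. Its second probe, detected on all 6 arrays, changed by -0.16, and the call was lost when any single array other than wild-type replicate 2 was left out, at an adjusted p of up to 0.128. It was also lost with the Xist term (1.54, adjusted p = 0.308), the authors' deposited background-subtracted values, no filter on dim probes and the mean of its probes, where the change was at least 0.72 and the adjusted p 0.174 to 0.206. Near Vldlr, on chromosome 19, 0 of the 220 Zfp genes lay within 10 Mb, and Zfp91 was the only one on that chromosome.

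Among KRAB repressors with described roles, 4 of 10 listed genes were detected and 0 passed, beside 2.5% of all features. Zfp809, which silences proviruses of murine leukaemia virus in stem cells, was 6.22, 6.39 and 5.65 in knockout against 6.22, 5.80 and 5.75 in wild-type retinas, with overlapping groups. Zfp445, which keeps parental imprints, changed by 0.11 and overlapped too. The other detected genes of this group were Zfp316, at -0.66, and Zfp157. The imprinting regulator Zfp57 was not analysed here, and Zfp568, a repressor in embryonic and placental development, was detected on 0 arrays.

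In the group with roles in neural tissue, 12 of 19 genes were detected and 0 passed, beside 2.5% of all features. Changes went from -0.61 to 0.68, with 9 of the 12 negative. Zfp513, whose human counterpart has been linked to retinal degeneration, was 7.36, 7.62 and 7.09 in knockout against 7.46, 7.44 and 7.48 in wild-type retinas. The change of -0.10 (SE 0.18) lay within the spread. Zfp644, whose human counterpart has been linked to high myopia, was 8.94, 8.84 and 8.82 in knockout and 9.10, 8.96 and 9.69 in wild-type retinas, separated but with an adjusted p of 0.498. Zfp521 and Zfp423, related regulators of neural progenitors, changed by 0.18 and -0.17, and Zfp536, an inhibitor of neuronal differentiation, by -0.27. Zfp24, required for myelination, had the largest positive change of the group, 0.68, with overlapping groups. Zfp804a, whose human counterpart is associated with schizophrenia, was at -0.61 and Zfp335, linked to microcephaly in humans, at -0.44. Zfp516, at -0.61, Zfp703, at -0.40, Zfp292, at -0.33, and Zfp711, at 0.06, did not pass either. Of genes not detected, Zfp503 and Zfp408 had a best probe detected on 0 arrays.

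Zfp genes that act on RNA or ribosomes were detected for 9 of 11 and 0 passed, beside 2.5% of all features. Zfp36, or tristetraprolin, which binds AU-rich elements and speeds mRNA decay, was 6.53, 6.48 and 6.28 in knockout against 6.89, 6.95 and 6.75 in wild-type retinas. Its groups did not overlap, at a change of -0.44 and an adjusted p of 0.302. Zfp326, which couples splicing to elongation by RNA polymerase II, was 8.81, 8.92 and 8.64 in knockout against 8.58, 8.10 and 8.20 in wild-type retinas, a change of 0.50 (adjusted p = 0.304). Its other tested probes, also detected on all 6 arrays, changed by 0.09 and -0.18 with overlapping groups. Zfp598, a ubiquitin ligase at collided ribosomes, was at -0.25, and Zfp622, a maturation factor of the large ribosomal subunit, at -0.04. The binder of double-stranded RNA Zfp346 was at -0.33, the mitotic spindle protein Zfp207 at -0.13, Zfp638 at -0.21, Zfp106 at 0.07 and Zfp385a at -0.58. The last was 9.18, 9.35 and 9.11 in knockout and 9.21, 9.53 and 10.64 in wild-type retinas, with wild-type replicate 3 alone standing high. Other tested probes changed by 0.16 and 0.04 for Zfp346 and by 0.03 for Zfp385a, with overlapping groups.

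Of 13 listed activators and other regulators, 9 were detected and only Zfp367, described above, passed. That is 11.1% of the 9, beside 2.5% of all features. Zfp148, which binds GC-rich promoters, was 8.93, 9.0 and 8.81 in knockout against 9.11, 9.29 and 9.22 in wild-type retinas. Zfp219 was 10.56, 10.50 and 10.85 in knockout and 10.42, 10.26 and 10.32 in wild-type retinas. By these probes both genes separated the groups by small steps, -0.29 and 0.31, and neither passed. Their other tested probes, detected on all 6 arrays, changed by 0.01 for Zfp148 and 0.11 for Zfp219, with overlapping groups. Zfp746, or PARIS, a repressor degraded through parkin, was at -0.41, and Zfp281, a regulator of pluripotent cells, at 0.40. Zfp410, known for activating Chd4, was at 0.21, with Zfp384 at 0.14, Zfp64 at 0.08 and the ubiquitin ligase Zfp91 at 0.03.

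**Figure D4:**
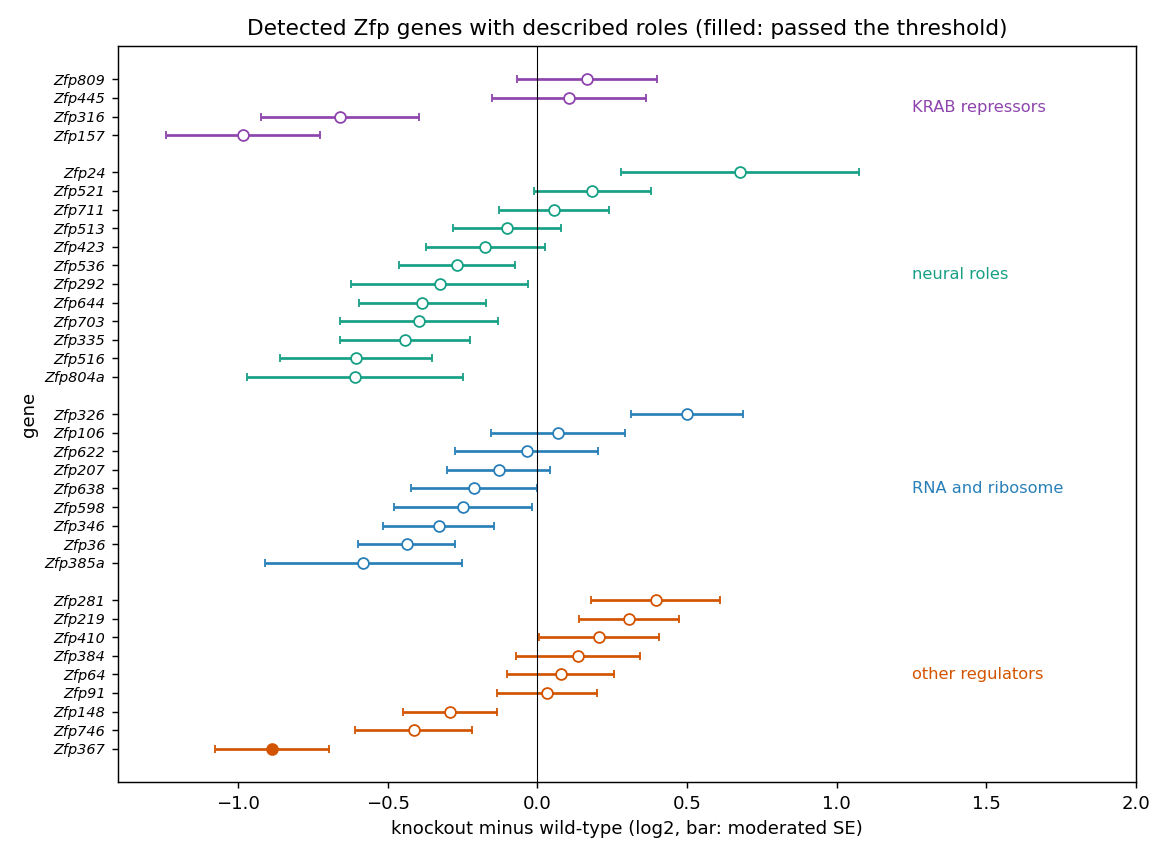
Change of the 34 detected Zfp genes with described roles (knockout minus wild-type, log2, bar the moderated SE), grouped by role, with filled points for genes past the threshold. Only Zfp367, at -0.89, is filled, and the open points go from -0.98 to 0.68.

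The co-repressors that KRAB zinc finger proteins recruit were tested for 24 of 36 listed genes, of which 1 passed as lower and 0 as higher. That is 4.17%, beside 2.5% of all features called, 1.74% lower and 0.758% higher. The gene that passed was Atf7ip, the partner that stabilizes the histone methyltransferase Setdb1. It was 8.01, 7.85 and 7.89 in knockout against 8.97, 9.06 and 9.45 in wild-type retinas. Its change was -1.24 (SE 0.181, limma adjusted p = 0.0065), a second probe changed by -1.01, and the call was lost without knockout replicate 2, with the authors' deposited background-subtracted values and with the Xist term. Setdb1 itself changed by -0.20 and Trim28, the KRAB-binding co-repressor, by -0.45 (adjusted p = 0.419), with overlapping groups for both. Mta1, a subunit of the NuRD remodelling complex, at -0.71, Gatad2b of the same complex, at -0.64, and Trim33, a relative of Trim28, at -0.52, were lower without overlap and did not pass. Changes were positive for 9 of the 24, among them the NuRD subunits Rbbp4, at 0.68 (adjusted p = 0.345), Rbbp7, at 0.60, Mta2, at 0.25, and Hdac2, at 0.16, all with overlapping groups. Dnmt1, the maintenance DNA methyltransferase, was 7.50, 7.53 and 7.37 in knockout against 7.24, 7.30 and 7.08 in wild-type retinas, higher without overlap at 0.26, and did not pass. The groups did not overlap for 5 of the 24 genes, 4 lower and 1 higher, or 20.8%, against 18.6% of all features. The list's median change was -0.05, beside 0.02 over all features.

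Among 39 detected Zbtb, Zscan and Zkscan genes, families of zinc finger genes with other domains, 0 passed by limma, beside 2.5% of all features. Of these genes 1 was higher and 2 lower at an unadjusted p under 0.05, or 7.69%, beside 12.4% of all features. By the smallest p they were led by Zbtb8os, which shares the symbol stem only, at 0.60, Zbtb8a at -0.43, Zkscan4 at -0.46 and Zbtb26 at -0.40. No test of a difference between these families and the Zfp genes was run.

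The detection rule decided part of this picture. Of the 220 genes 11 were detected on exactly 3 arrays, 10 on 4, 14 on 5 and 185 on 6. Of the 108 Zfp genes left out, 16 had a best probe detected on 2 arrays, 14 on 1 and 78 on 0. Just inside, the third smallest detection p was 0.04915 for Zfp738 and 0.04701 for Zfp473 and Zfp791, and just outside it was 0.05235 for Zfp879, Zfp300 and Zfp458. Of the 76 genes with more than 1 tested probe, only Zfp933 and Zfp87 had probes whose changes differed by more than 1 on the log2 scale. Among the largest changes named above that did not pass, the probes differed by 0.999 for Zfp865, 0.815 for Zfp386 and 0.713 for Zfp78.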

How the data were processed

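Retinal RNA of 3 Vldlr knockout and 3 wild-type samples was hybridised to Illumina mouse BeadChips of 1 colour, with GenomeStudio named in the submitters' processing notes (version not given in the sources used here). The authors deposited linear probe intensities, each with its detection p-value, per the file headers. Their further table equals these intensities minus 1 constant per array (57.2 to 69.1, largest deviation 0.1), and the series' value table holds the same numbers (0 differ).

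Intensities were background-corrected, quantile-normalized and put on the log2 scale with neqc of limma 3.58.1 in R 4.3.3 (offset 16, negative controls inferred from the deposited detection p-values). Quantile normalization and the offset compress changes of dim probes. A probe was tested if detected at p under 0.05 on at least 3 of 6 arrays (19921 probes), and a gene was its brightest tested probe, giving 13989 features. Of all probes 34885 had 1 symbol in the platform annotation, 18 several and 10378 none, and 34807 of those named matched RefSeq by gene ID (GRCm38.p6, used for names, order and promoters). RefSeq promoters were found for 182 of 220 genes. Depth is not defined for arrays, and their number limits the precision.

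Groups were compared by limma's linear model with moderated variance (2-sided, no covariate). P-values were adjusted by Benjamini-Hochberg across the 13989 features, with 0.05 as the threshold. The procedure was tested on simulated data. Lower bounds for genes not above background in a group use the lowest detected signal of each array. Errors are SD between arrays or moderated SE. Named genes were those in the selection rule, all past the threshold, the 4 largest changes in each direction that did not pass, detected genes of 4 role lists, genes with disagreeing probes, neighbours of called genes and the 4 co-repressors and related zinc finger genes with the smallest p. Trim28, Setdb1, Rbbp4, Rbbp7, Mta2, Hdac2, Dnmt1 and genes of the chromosome 13 run were named after their values were seen. The genes and lists were chosen with earlier results of these data known. Alternatives covered normalization, background, filters, probe choice, variance model, array weights, a replicate block, a threshold of 0.1 and leaving out each array, and, chosen after seeing the data, probes detected on 6 arrays and 2 forms of an Xist term.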

Additional observations from a re-analysis of the deposited data

How the results depend on the processing

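Zfp160 and Zfp874b kept their calls under all 21 alternatives run, with changes of -2.80 to -1.61 and -2.41 to -1.67, and Zfp933 under the 20 that tested it, at -2.81 to -1.21. Zfp706 lost its call with the term for high Xist, Zfp87 with the authors' background-subtracted table, the mean of probes and that term, Zfp39 without a filter, with that term and without any of 3 arrays, and Zfp429 and Zfp367 in 12 and 13 settings. All features called numbered 350, against 170 with the authors' table, 961 with array weights, 197 on probes detected on 6 arrays, 115 with the Xist term and 183 to 399 leaving out 1 array. Zfp genes called lower were 8, against 5 with the authors' table and with no filter, 13 with array weights, 4 on 6-array probes, 3 with the Xist term and 5 to 9 leaving out 1 array. The 5 came without knockout replicate 2 and without knockout replicate 3. Zfp genes called higher were 0, against 1 with raw quantile normalization, no filter, trended variance and an adjusted p under 0.10, 5 with array weights and 0 to 2 leaving out 1 array. Co-repressors called were 1, against 0 with the authors' table and the Xist term, 3 with array weights and 0 to 3 leaving out 1 array, and the related families were 0, against 1 with array weights. Coding the Xist term by detection, which adds wild-type replicate 2 at 4.97, left 6 Zfp genes lower. Habp4 turned to -0.16 on probes detected on 6 arrays, where its dimmer probe stands for it. For the others the cause was not tested. The median change of the Zfp genes was -0.10 with the title number as a replicate block, against -0.04 without, and -0.09 to 0.01 leaving out 1 array. Title numbers 4 and 5 occur in both groups, but their arrays' deviations correlated at -0.04 and -0.22, so numbers are not taken as pairs, and the block moved no count of calls by over 1.5 times. Under it Vldlr was -1.0 (adjusted p = 0.0664) and Habp4 1.55 (adjusted p = 0.0673), both not called. Signals near background limit what can be said of Zfp933, Zfp706, Zfp429, Zfp367, Zfp738 and Zfp985.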

Other observations

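The arrays did not contribute alike to the extremes of the Zfp genes. Knockout replicate 3 was the lowest of the 6 arrays for 61 of the 220 genes and wild-type replicate 3 for 64, against 23 to 25 for each of the other 4 arrays. Knockout replicate 2 was the highest for 23 and wild-type replicate 2 for 56. Over all features, knockout replicate 3 was lowest for 22.2% and wild-type replicate 3 for 32.2%, so the unevenness was shared by the features at large.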
